A study of Homo sapiens with 9 samples.

Results

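The 10 genes described here encode carriers that move amino acids across the plasma membrane, together with the shared subunit that takes some of them to the cell surface. They were chosen by symbol as SLC7A5, SLC3A2, SLC7A11, SLC7A1, SLC7A3, SLC1A4, SLC1A5, SLC38A1, SLC38A2 and SLC6A9, and all 10 matched 1 gene each among the 60683 gene IDs of the count files. RNA was sequenced from HEK293T cells, derived from human embryonic kidney and bearing the large T antigen of SV40, as 3 libraries of each of 3 groups. Parental cells are the line from which both clones were made. Clone 15 and clone 37 each descend from a single sorted cell in which the piggyBac transposon had placed ATG-(CAG)60-Myc-NLuc, a NanoLuc reporter behind a repeat tract, and ATG-(CAG)0-Myc-FLuc, a firefly luciferase reporter without the tract. Per the labels, expression of the integrands is low in clone 15 and high in clone 37. All 3 lines grew in DMEM with 10% fetal bovine serum and penicillin/streptomycin. Each level of expression is represented by 1 clone, so it cannot be told apart from other differences between the clones, and no line carries the repeat-free reporter alone. Read length was 75 bases for parental and clone 37 and 100 bases for clone 15, so it cannot be told apart from clone 15 either.

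Cells cannot make essential amino acids, and growing cells import them through carriers of several families. SLC7A5 (LAT1), which takes up leucine and other large neutral amino acids, and SLC7A11 (xCT), which takes up cystine in exchange for glutamate, are light chains that reach the surface bound to the heavy chain SLC3A2 (4F2hc, CD98). Many transporter genes belong to the amino acid response, in which uncharged tRNA activates the kinase GCN2, translation of the transcription factor ATF4 rises, and ATF4 binds response elements together with C/EBP partners. Other conditions that phosphorylate eIF2, such as endoplasmic reticulum stress, act through the same factor.

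Because ATF4 and C/EBP factors are known to bind the composite letters TGATGNAA, the promoter windows of the genes were searched for them on both strands. A window runs from 250 bases before to 50 bases after a RefSeq start (GRCh38.p14), and RefSeq windows for 8 of the 10 genes were at hand, 14 windows in all. SLC7A11 and SLC7A3 had no entry. The letters occurred in 5 of the 14 windows, which belonged to 5 of the 8 genes, and in 3.62% of all 35116 windows of the same length. The 5 matches follow, on the strand of the gene with the matching letters in capitals; those of SLC3A2 and SLC1A4 are the motif on the opposite strand. SLC3A2 and SLC1A5 have 3 windows each and SLC1A4 and SLC38A1 2, and the letters were in 1 window of each gene. The last 25 bases of the window were found in a GENCODE transcript for 12 of the 14 windows, the exceptions being both windows of SLC38A1. A match describes the letters in the window and no more.
SLC3A2 (window chr11:62881449-62881748, plus strand, match at base 288 of 300): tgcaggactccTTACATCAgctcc
SLC7A1 (window chr13:29595639-29595938, minus strand, match at base 258): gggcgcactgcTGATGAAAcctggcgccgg
SLC1A4 (window chr2:64989149-64989448, plus strand, match at base 244): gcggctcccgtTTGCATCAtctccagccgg
SLC1A5 (window chr19:46784765-46785064, minus strand, match at base 154): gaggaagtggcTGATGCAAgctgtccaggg
SLC38A1 (window chr12:46266467-46266766, minus strand, match at base 247): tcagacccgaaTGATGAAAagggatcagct

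The window of SLC1A4, which fell strongly in both clones, and that of SLC7A5, which fell less in clone 37, are shown whole. They were picked with these changes known, and the matches did not follow the changes throughout: SLC6A9 had no match and fell by 1.07 on the log2 scale in clone 37, SLC3A2 had one and was not called, and SLC1A5 had one and rose in clone 15. Capitals also mark the antioxidant response element core TGACNNNGC, known for NRF2, and the E-box CACGTG, known for MYC. Searched on both strands, these occurred in 4 and 2 of the 14 windows and in 13.3% and 7.26% of all windows. The SLC7A5 window held 1 of each and no TGATGNAA, and the SLC1A4 window held TGATGNAA alone.
SLC1A4 (chr2:64989149-64989448, plus strand): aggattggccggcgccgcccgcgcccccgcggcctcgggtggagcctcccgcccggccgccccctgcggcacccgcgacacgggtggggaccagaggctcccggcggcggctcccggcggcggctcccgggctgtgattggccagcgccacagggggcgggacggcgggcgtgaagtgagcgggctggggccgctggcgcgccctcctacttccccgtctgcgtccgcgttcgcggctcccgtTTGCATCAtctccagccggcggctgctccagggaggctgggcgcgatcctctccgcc
SLC7A5 (chr16:87869458-87869757, minus strand): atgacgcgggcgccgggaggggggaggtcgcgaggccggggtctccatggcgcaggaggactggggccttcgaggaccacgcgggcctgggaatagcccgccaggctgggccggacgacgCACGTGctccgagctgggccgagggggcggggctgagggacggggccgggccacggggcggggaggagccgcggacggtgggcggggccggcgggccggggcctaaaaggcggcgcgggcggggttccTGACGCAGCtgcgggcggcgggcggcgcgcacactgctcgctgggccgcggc

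Counts on the transcript strand summed to 10809034 to 13902872 per parental library, 10334090 to 12352171 in clone 37 and 18654063 to 38093340 in clone 15. All 9 markers listed for the HEK293T line had counts in every library, but the neuronal intermediate filament genes among them differed widely. NEFM averaged 558.9 CPM (counts per 1000000 gene counts) in parental, 2728 in clone 15 and 137 in clone 37, and NEFL 235, 716 and 60.7. INA was lower in both clones, with 18.6, 13.96 and 4.497 CPM. Of 7 markers of other cells, CD3E and HBB had 0 counts in all 9 libraries. The fibroblast collagen COL1A2 had 213, 300 and 1059 counts in clone 15 replicates 1, 2 and 3 and 0 in each parental and clone 37 library. It was not called in clone 15 by edgeR (adjusted p 0.171) and was called higher by DESeq2 (adjusted p 1.84e-07). The other collagen of that list, COL1A1, had 48.3, 61.4 and 108 CPM in clone 15 and 32.9 to 35.5 in parental, a log2 fold change of 1.04 that edgeR did not call (adjusted p 0.0799) and DESeq2 did (adjusted p 0.0112). In clone 37 COL1A1 was called lower (-0.85). The 7 markers summed to 54.2, 74.0 and 165 CPM in clone 15 replicates 1, 2 and 3, against 33.1 to 35.5 in parental and 18.5 to 21.2 in clone 37. A list of 12 fibroblast genes, written after COL1A2 was seen, summed to 60.8, 68.6 and 137 CPM in clone 15, 96.95 to 103 in parental and 77.25 to 86.5 in clone 37. None of the 12 was at 0 in clone 15, and 2 to 4 were at 0 in each parental and clone 37 library, but the clone 15 libraries are deeper and some of their values are a few counts (FAP had 4, 1 and 7). Of the 8 tested in clone 15, 0 were called higher by edgeR, 0 at an unadjusted p under 0.05 and 1 by DESeq2, COL1A2, and 3 were called lower, LUM (-1.43), COL5A2 (-1.39) and FBN1 (-0.39). In clone 37, 6 were tested, of which 1 was called higher, FBN1 (0.44), and 4 lower, most of all COL3A1 (-5.97), THBS2 (-3.51) and LUM (-2.35). Among all genes tested, clone 37 had 27.3% called lower and 26.7% called higher. For clone 15 those shares were 26.2% and 25.1%. The part of the fibroblast genes in the clone 15 results was not tested. The number of the 10 transporter genes called in clone 15 was 9 without replicate 3, the library with most COL1A2. With replicate 1 alone, the library with least, 7 were called, in a fit where only the 3 parental libraries give the spread and the lone library is assumed to vary as they do. The share of read pairs on no annotated exon of the counted strand was 33.7% to 34.6% in clone 15. It was 25.7% to 29.9% in clone 37 and 19.2% to 28.8% in parental. This share includes pairs on exons of the opposite strand only, and its part in the clone 15 results was not tested. Parental replicate 2 stood apart with the 19.2%, and no call of the 10 genes against parental changed without it.

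Levels are compared between genes as CPM per kilobase of annotated exon. In parental cells SLC1A5 was the most abundant of the 10, at 92.2 ± 5.16 CPM per kb (SD, n = 3). SLC7A5 followed at 78.8 ± 7.39, SLC38A2 at 65.0 ± 1.92, SLC38A1 at 54.2 ± 1.69, SLC7A1 at 45.8 ± 2.77, SLC3A2 at 36.7 ± 2.01 and SLC7A11 at 23.4 ± 2.22 CPM per kb (SD, n = 3 each). The lowest were SLC7A3 at 13.7 ± 0.477, SLC6A9 at 9.585 ± 1.18 and SLC1A4 at 6.07 ± 0.430 CPM per kb (SD, n = 3 each). The ranges of the 3 libraries did not overlap between any neighbours in this order. The order rests on the length used, since SLC3A2 has 5178 bases of annotated exon and a longest transcript of 2222. With longest transcripts the parental SLC7A5 to SLC3A2 ratio averaged 0.963, so SLC7A5 no longer stood above SLC3A2. By annotated exon, SLC1A5 (67.9 ± 2.27) and SLC7A5 (67.7 ± 1.92) overlapped at the top in clone 37. There SLC3A2 (36.2 ± 0.729) stood above SLC7A1 (25.3 ± 0.954), the reverse of parental cells by this measure. In clone 15 SLC1A5 reached 125 ± 11.98 CPM per kb, and SLC38A2 overlapped SLC38A1, SLC7A1 overlapped SLC3A2 and SLC6A9 overlapped SLC7A3. The 10 genes together held 0.240% to 0.263% of gene counts in the parental libraries, 0.198% to 0.213% in clone 15 and 0.183% to 0.187% in clone 37.

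**Figure D1:**
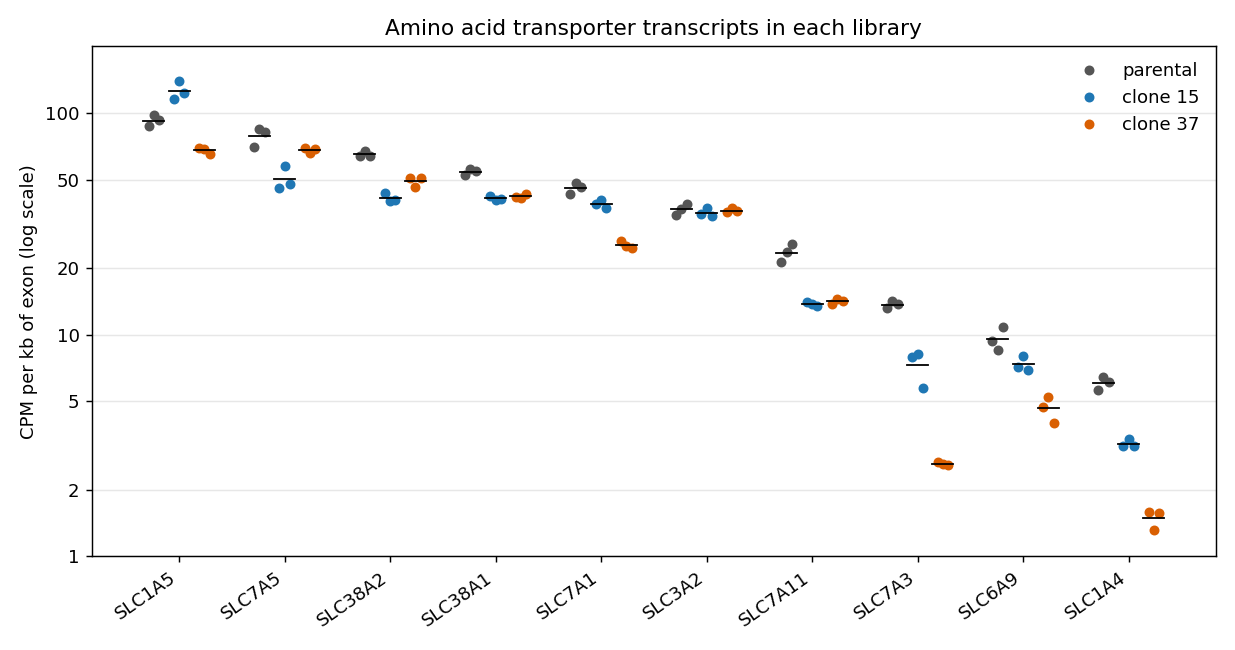
CPM per kilobase of exon on a log axis for each of the 10 genes, 1 point per library and a line at the group mean, ordered by the parental level. The SLC3A2 points of the 3 groups overlap, those of SLC7A3, SLC6A9 and SLC1A4 fall from parental to clone 15 to clone 37, and SLC1A5 is above parental in clone 15 and below it in clone 37.

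Against parental cells, 9 of the 10 genes were lower in clone 37 and 8 were lower in clone 15. A gene is called at an adjusted p under 0.05 (edgeR's quasi-likelihood test, Benjamini-Hochberg over all genes tested). In clone 37 none was called higher, with 0 also at an unadjusted p under 0.05 and with DESeq2, where 27.3% of the 16501 genes tested were called lower and 26.7% higher. In clone 15 only SLC1A5 was called higher, where 26.2% of 17703 tested genes were called lower and 25.1% higher. SLC3A2 was called in neither clone. The median log2 fold change of the 10 genes was -0.61 in clone 37 and -0.55 in clone 15, and that of all genes tested was 0.02 in each. These 2 comparisons share the parental libraries. In such bulk libraries fewer cells with a transcript and less of it per cell cannot be told apart, and nothing in the labels says that replicates came from separate cultures, so p-values measure the spread between these libraries.

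**Figure D2:**
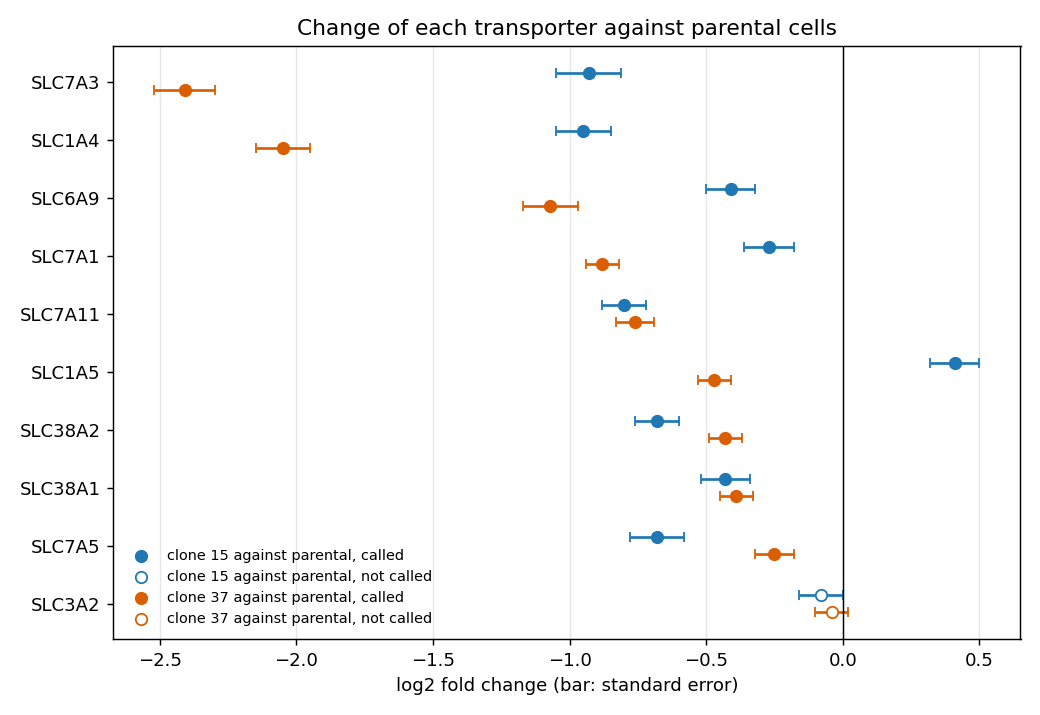
Log2 fold change against parental cells for each gene in clone 15 and clone 37, with bars of 1 standard error and filled points for called genes. SLC7A3 (-2.41) and SLC1A4 (-2.05) lie farthest left in clone 37, SLC1A5 is on opposite sides of 0 in the clones (0.41 and -0.47), and the SLC3A2 points are open.

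The heavy chain SLC3A2 was called in neither clone, while its light chains SLC7A5 and SLC7A11 were lower in both. Values are given in the order of replicates 1, 2 and 3, and gene positions are those of GENCODE 29 on GRCh38. SLC3A2 (ENSG00000168003, chromosome 11, 62856102 to 62888875) had 179.6, 189.7 and 200.4 CPM in parental cells, 180.5, 193.3 and 177.4 in clone 15 and 184, 192 and 187 in clone 37. The groups overlap throughout. Its log2 fold change was -0.04 in clone 37 (95% interval -0.16 to 0.08, adjusted p 0.541) and -0.08 in clone 15 (interval -0.24 to 0.08, adjusted p 0.424). Relative to the median of its chromosome neighbours, described after the single genes with the limit of that test, it was called lower in both clones.

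The leucine carrier SLC7A5 (ENSG00000103257, chromosome 16, 87830023 to 87869488) had 334, 399.6 and 388 CPM in parental cells, 217, 274 and 226 in clone 15 and 328, 311 and 324 in clone 37. All clone libraries lay below all parental ones, with clone 37 replicate 1 close to the lowest parental library. SLC7A5 fell by 0.68 on the log2 scale in clone 15 (SE 0.10, adjusted p 2.72e-06) and by 0.25 in clone 37 (SE 0.07, adjusted p 0.00707). The clone 37 call was lost without clone 37 replicate 2 (-0.215, adjusted p 0.053) and after the dependence of each library on GC content and transcript length was removed (-0.20, adjusted p 0.0713).

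The cystine carrier SLC7A11 (ENSG00000151012, chromosome 4, 138164097 to 138242349) had 204, 227 and 247 CPM in parental cells, 135, 132 and 130.1 in clone 15 and 132, 139.6 and 136 in clone 37. The clones overlapped each other and lay well below every parental library. It fell by 0.76 in clone 37 (SE 0.07, adjusted p 4.21e-08) and by 0.80 in clone 15 (SE 0.08, adjusted p 1.48e-08) on the log2 scale, the latter 0.43 with the GC and length trends removed.

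Since each light chain needs the heavy chain at the surface, the ratio of their counts per kilobase was taken in each library. The SLC7A5 to SLC3A2 ratio was 2.03, 2.298 and 2.11 in parental cells, 1.31, 1.545 and 1.39 in clone 15 and 1.94, 1.77 and 1.895 in clone 37. The 3 groups did not overlap in this ratio, with clone 37 between the others. For SLC7A11 the ratio to SLC3A2 was 0.611, 0.6415 and 0.662 in parental cells, 0.401, 0.3675 and 0.394 in clone 15 and 0.385, 0.391 and 0.3915 in clone 37, so both clones were lower than parental and overlapped each other. These ratios carry no correction for GC content or length. With those trends removed, clone 15 against parental was -0.43 for SLC7A11 and -0.27 for SLC3A2 on the log2 scale, much closer together. SLC7A5 was at -0.75 there, farther from SLC3A2. In clone 37 against parental SLC7A11 was at -0.62, SLC7A5 at -0.20 and SLC3A2 at -0.07. Clone 37 against clone 15 was -0.18 for SLC7A11, 0.57 for SLC7A5 and 0.20 for SLC3A2. Without this correction, the SLC7A5 ratio differed from parental by -0.20 in clone 37 and -0.60 in clone 15 on the log2 scale. The SLC7A11 ratio differed by -0.71 and -0.72. Each of these ratio differences had a two-sided exact permutation p of 0.1, the smallest that 3 libraries against 3 allow. Adjusted over the 9 ratio comparisons made, it was 0.1125. The ratio's level rests on the length used, since the annotated exons of SLC3A2 sum to 5178 bases and its longest transcript has 2222. With longest transcripts the parental SLC7A5 to SLC3A2 ratio was 0.963 ± 0.06205 (SD, n = 3).

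**Figure D3:**
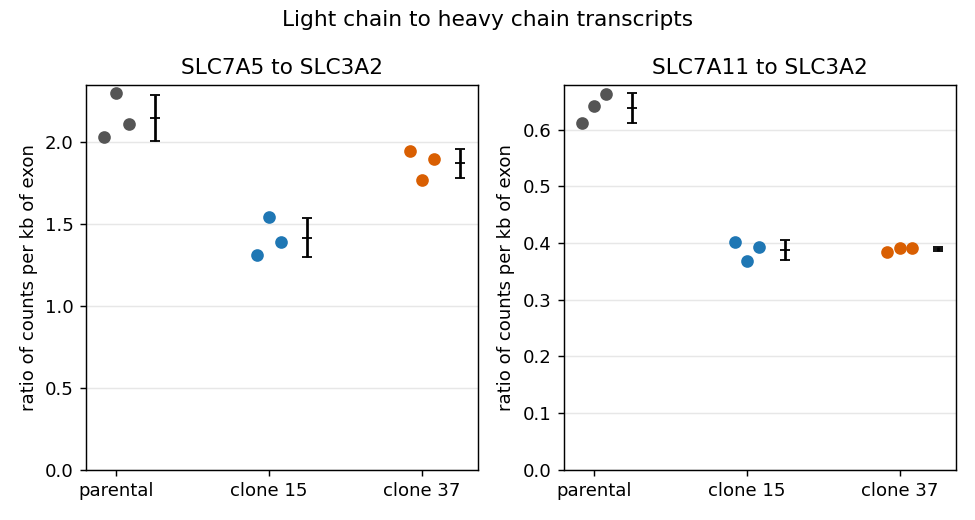
Ratio of counts per kilobase of exon of SLC7A5 and of SLC7A11 to SLC3A2, 1 point per library, with the mean and SD of 3 libraries beside them. The SLC7A5 ratio averages 2.15 in parental cells, 1.415 in clone 15 and 1.87 in clone 37, and the SLC7A11 ratio 0.638, 0.387 and 0.389.

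The cationic carriers SLC7A1 (CAT1) and SLC7A3 (CAT3), which import arginine and lysine, were lower in both clones and lowest in clone 37. SLC7A3 (ENSG00000165349, chromosome X, 70925582 to 70931125) had 29.8, 31.9 and 31.1 CPM in parental cells, 17.98, 18.5 and 12.97 in clone 15 and 6.03, 5.90 and 5.83 in clone 37. It fell by 2.41 on the log2 scale in clone 37 (SE 0.11, adjusted p 5.31e-12), a 5.32-fold decrease and the largest among the 10 genes there. In clone 15 it fell by 0.93 (SE 0.12, adjusted p 3.65e-07), with replicate 3 well below the other clone 15 libraries.

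SLC7A1 (ENSG00000139514, chromosome 13, 29509410 to 29595688) had 329, 372 and 356 CPM in parental cells, 299, 311 and 286.5 in clone 15 and 202.5, 193 and 188 in clone 37. The groups were separate, and clone 37 was farther from parental than clone 15 was. SLC7A1 fell by 0.88 in clone 37 (SE 0.06, adjusted p 3.67e-09) and by 0.27 in clone 15 (SE 0.09, adjusted p 0.0103) on the log2 scale. The clone 15 call was lost with clone 15 replicate 1 alone (-0.245, adjusted p 0.144), where the size hardly moved and 1 library has less power, and relative to chromosome neighbours.

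The neutral amino acid exchangers SLC1A4 (ASCT1, known for serine and alanine) and SLC1A5 (ASCT2, known for glutamine) parted ways in clone 15. SLC1A4 (ENSG00000115902, chromosome 2, 64988477 to 65023865) had 38.95, 44.9 and 42.5 CPM in parental cells, 21.8, 23.5 and 21.8 in clone 15 and 11.05, 9.10 and 10.85 in clone 37. It fell 4.14-fold in clone 37 (log2 -2.05, SE 0.10, adjusted p 2.67e-11) and 1.93-fold in clone 15 (log2 -0.95, SE 0.10, adjusted p 1.21e-08). Its groups did not overlap, and relative to chromosome neighbours the clone 15 value was -0.42.

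SLC1A5 (ENSG00000105281, chromosome 19, 46774883 to 46788594) had 289.8, 324 and 308 CPM in parental cells, 383, 461 and 409 in clone 15 and 232, 229 and 218 in clone 37. Every clone 15 library was above, and every clone 37 library below, all parental ones. SLC1A5 rose by 0.41 on the log2 scale in clone 15 (SE 0.09, adjusted p 0.000474) and fell by 0.47 in clone 37 (SE 0.06, adjusted p 5.47e-06). With clone 15 replicate 1 alone its increase was 0.31 (adjusted p 0.0581), again with 1 library in the arm. Its clone 37 call was lost relative to chromosome neighbours.

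SLC38A1 (SNAT1) and SLC38A2 (SNAT2), sodium-coupled carriers of glutamine, alanine and other small neutral amino acids, lie in the same orientation on chromosome 12 with 88171 bases and no annotated protein-coding gene between them. SLC38A1 (ENSG00000111371, 46183063 to 46270017) had 524, 556 and 549 CPM in parental cells, 423, 406 and 410.5 in clone 15 and 417, 415 and 432.5 in clone 37. It fell by 0.39 in clone 37 (SE 0.06, adjusted p 4.14e-05) and by 0.43 in clone 15 (SE 0.09, adjusted p 0.000201), or by 0.26 and 0.21 with the GC and length trends removed. The clones overlapped.

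SLC38A2 (ENSG00000134294, 46358189 to 46372867), whose induction on amino acid withdrawal is well known, had 421, 444 and 423 CPM in parental cells, 286, 265 and 268 in clone 15 and 334, 307 and 335 in clone 37. It fell by 0.43 in clone 37 (SE 0.06, adjusted p 2.16e-05) and by 0.68 in clone 15 (SE 0.08, adjusted p 2.72e-07), the latter 0.42 with the trends removed. The clone 15 libraries were all below those of clone 37.

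The glycine carrier SLC6A9 (GlyT1; ENSG00000196517, chromosome 1, 43991500 to 44031467) had 48.3, 44.0 and 56.0 CPM in parental cells, 36.8, 41.2 and 35.8 in clone 15 and 24.4, 27.0 and 20.6 in clone 37. The groups were separate and ordered from parental to clone 15 to clone 37. SLC6A9 fell by 1.07 on the log2 scale in clone 37 (SE 0.10, adjusted p 1.23e-07) and by 0.41 in clone 15 (SE 0.09, adjusted p 0.000604).

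Set directly against each other, clone 37 and clone 15 differed in 7 of the 10 genes. Clone 37 was lower in 5, where 29.0% of 17712 tested genes were called lower and 28.7% higher. These were SLC7A3 (log2 -1.48, SE 0.14), SLC1A4 (-1.10, SE 0.11), SLC1A5 (-0.88, SE 0.06), SLC6A9 (-0.66, SE 0.09) and SLC7A1 (-0.61, SE 0.05). Clone 37 was higher in SLC7A5 (0.43, SE 0.06, adjusted p 2.85e-06) and SLC38A2 (0.26, SE 0.06, adjusted p 0.000259). Relative to its chromosome neighbours SLC7A5 turned to -0.32 (adjusted p 0.00022). The SLC38A2 call was lost with GC and length trends removed (0.09, adjusted p 0.0872). SLC3A2 (0.03, 95% interval -0.07 to 0.14), SLC7A11 (0.04, interval -0.07 to 0.15) and SLC38A1 (0.03, interval -0.07 to 0.14) were not called. The median over the 10 genes was -0.29, and over all genes tested 0. With the trends removed SLC3A2 was called higher (0.20, adjusted p 0.000165) and SLC7A11 lower (-0.18, adjusted p 0.000917) in clone 37.

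HEK293T lines differ in chromosome content, so each gene was set beside the median change of the 100 tested genes nearest to it on its chromosome. In clone 37 the neighbours of SLC7A5 on chromosome 16 had a median log2 fold change of 0.67, while SLC7A5 itself was at -0.25, a gap of -0.91. The neighbours of SLC1A5 on chromosome 19 were at -0.40, close to the gene's own -0.47, and relative to them SLC1A5 was not called (-0.07, adjusted p 0.415). SLC1A4 lay among genes with medians of -0.42 in clone 37 and -0.53 in clone 15, and relative to them it was still called lower, by 1.63 and 0.42. SLC3A2 lay among genes with medians of 0.23 and 0.42, and relative to them it was called lower in clone 37 (-0.28, adjusted p 0.000811) and in clone 15 (-0.50, adjusted p 1.69e-05). With the trends removed SLC3A2 was also called lower in clone 15 (-0.27, adjusted p 0.007).

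Relative to its neighbours SLC7A1 was not called in clone 15 (-0.14, adjusted p 0.207), and SLC6A9 was lower there by 0.67. Between the clones the neighbours of SLC7A5 were 0.75 higher in clone 37, which is what turned the sign of SLC7A5. SLC3A2 was called higher in clone 37 relative to its own (0.23, adjusted p 0.000689). SLC7A11 was called lower in clone 37 by that measure (-0.30, adjusted p 5.04e-05), and the SLC1A5 difference narrowed to -0.34. SLC7A3, SLC38A1 and SLC38A2 had neighbours between -0.04 and 0.19 in either clone. The number of gene copies was not measured, and its part in these values was not tested.

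**Figure D4:**
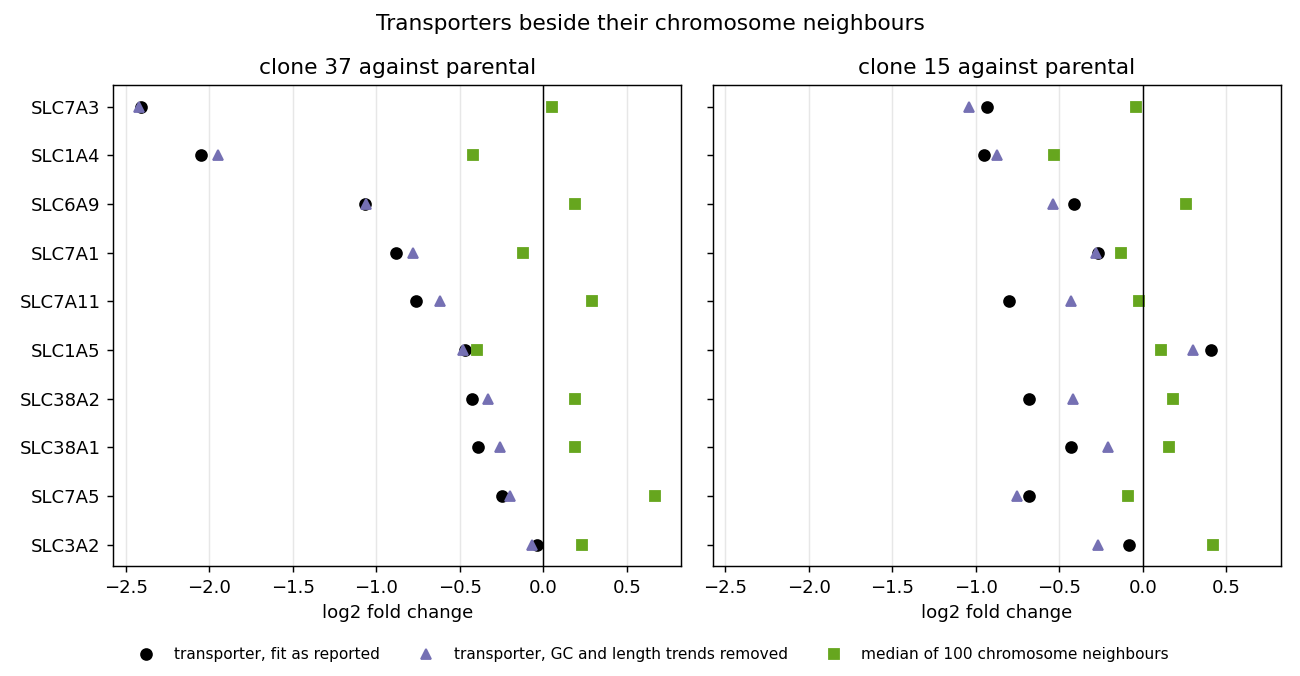
Log2 fold change against parental cells of each gene as fitted (black), with GC and length trends removed (violet), and the median of its 100 chromosome neighbours (green), for clone 37 and clone 15. In clone 37 the green square of SLC7A5 is far to the right of its black point (0.67 and -0.25), and that of SLC1A5 nearly coincides with it (-0.40 and -0.47).

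Other carriers of amino acids and related compounds were called in both directions. Of 33 further plasma membrane carriers, 14 were tested in clone 37, of which 7 were called higher and 4 lower, with a median log2 fold change of 0.17, beside 26.7% higher and 27.3% lower over all genes tested. In clone 15 the number tested was 15, of which 5 were called higher and 4 lower, with a median of -0.07, beside 25.1% and 26.2% over all genes. The shares called lower, and the share higher in clone 15, were near those of all genes. SLC43A2 (LAT4, a carrier of branched-chain amino acids) was higher in both clones, from 7.97 CPM in parental to 22.6 in clone 15 and 16.95 in clone 37 (log2 1.47 and 1.06). SLC7A8 (LAT2), another partner of SLC3A2, was higher in clone 15 (0.99, SE 0.10) and lower in clone 37 (-0.73, SE 0.11). The low-level partner SLC7A7 was higher in clone 15 (1.27, SE 0.38), where it averaged 1.49 CPM. SLC38A3 (-0.97) and SLC1A1, a glutamate carrier (-0.95), were lower in clone 37.

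Of 8 lysosomal carriers matched to a gene ID 7 were tested, and SLC66A4, also listed, matched none. Clone 37 had 4 called higher, clone 15 had 6, and neither had any called lower. Over all genes tested 26.7% and 25.1% were called higher, and 27.3% and 26.2% lower. In either clone 0 were lower at an unadjusted p under 0.05 in edgeR, and 0 with DESeq2. Those higher included the cystine exporter CTNS (log2 0.39 in clone 37 and 1.04 in clone 15), SLC66A1, an exporter of cationic amino acids (0.33 and 0.72), and MFSD12, a cysteine importer (0.79 in clone 37). SLC38A7, a glutamine carrier, rose by 0.69 in clone 15. The clone 37 count was 2 with the DESeq2 test, where SLC66A1 lost its call (adjusted p 0.0512). It was also 2 relative to chromosome neighbours, where CTNS (0.101) and SLC66A1 (0.0595) lost theirs. Of 11 tested mitochondrial carriers clone 37 had 4 called higher and 2 lower, and clone 15 had 7 and 1, where the 8 calls became 4 relative to neighbours. The same shares of all genes apply. SFXN2, of the sideroflexin family, was higher (0.58 and 0.82), and the aspartate and glutamate carrier SLC25A12 was lower (-0.81 and -0.49), the latter 0.152 and not called relative to its neighbours. SFXN3 fell by 0.56 in clone 37 and rose by 0.32 in clone 15, and in clone 15 SLC25A22 rose by 0.66.

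Genes of the amino acid response that are not carriers were mostly lower, as the 10 carriers were. All 26 were tested. Clone 37 had 24 called lower and 0 higher, with a median log2 fold change of -0.98, where 27.3% of all genes were called lower. The number higher was also 0 at an unadjusted p under 0.05 in edgeR and with DESeq2. Clone 15 had 22 called lower and 1 higher, with a median of -0.63, where 26.2% of all genes were called lower. The largest changes in clone 37 were in CHAC1, which degrades glutathione (-2.96, from 31.6 to 4.15 CPM), DDIT4, an inhibitor of mTORC1 (-2.58, from 287 to 49.25 CPM), and NUPR1 (-2.37). In clone 15 they were in NUPR1 (-2.80), DDIT4 (-2.09) and the transcription factor ATF3 (-1.43). The list was written with earlier results on stress genes in these libraries known, so its direction is not independent evidence.

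Lists on the cystine to glutathione route and on amino acid sensing had genes called in both directions, as all genes did (26.7% higher and 27.3% lower in clone 37, 25.1% and 26.2% in clone 15). Of 13 glutathione and NRF2 genes, 12 were tested in clone 37, 6 called higher and 2 lower (median 0.15). In clone 15 all 13 were tested, 5 called higher and 2 lower (median 0.23). NFE2L2, which encodes NRF2 itself, was lower in both clones (-0.70 and -0.67), and HMOX1, which degrades heme, was higher in clone 15 (0.86). Relative to its neighbours NFE2L2 was not called in clone 15 (-0.0919). GCLM, a subunit of the enzyme that starts glutathione synthesis, was lower in clone 15 (-0.46), a call lost with trends removed (-0.165) and relative to neighbours (-0.0383). SRXN1 was higher in clone 37 (1.06) from 0.512 CPM, and lost its call with DESeq2 (adjusted p 0.131), and without any 1 library other than parental replicate 2 (adjusted p 0.0545 to 0.13).

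Of 22 genes around mTORC1 and GCN2, 21 were tested in each clone, with 5 called higher and 4 lower in clone 37 and 8 and 3 in clone 15. In clone 37 these counts were no larger a share than over all genes. The Ragulator subunit LAMTOR2 (-0.89) and the Rag GTPases RRAGA (-0.57) and RRAGB (0.54) changed most in clone 37. In clone 15 these were BMT2 (-0.84), a sensor of S-adenosylmethionine, FLCN (0.70) and the leucine sensor family member SESN3 (-0.62). RRAGA was not called relative to its neighbours (-0.109).

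**Figure D5:**
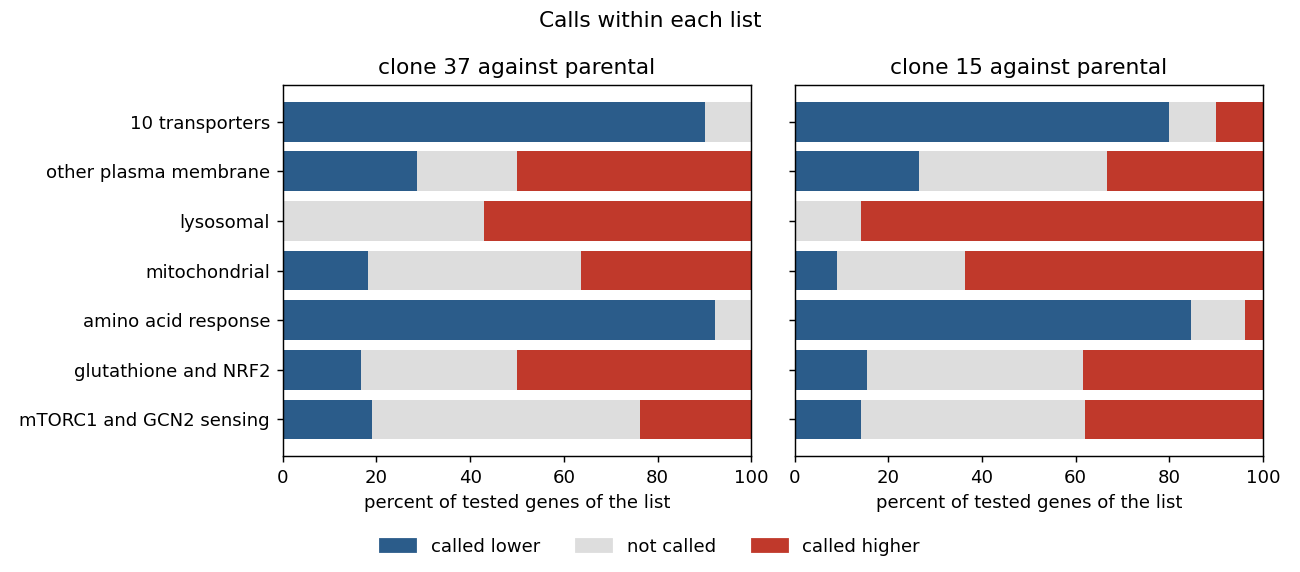
Percent of the tested genes of each list that were called lower, not called or called higher, for clone 37 and clone 15 against parental cells. The 10 transporters (9 and 8 lower) and the amino acid response list (24 and 22 of 26 lower) are mostly blue, and the lysosomal list has no blue.

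Similar, antisense and overlapping genes were examined for each transporter. Words of 75 bases from the longest SLC7A5 transcript occur in another annotated gene for 2.94% of positions, for 0.0104% in SLC7A11 and for 0 in the other 8. The SLC7A5 pseudogene SLC7A5P1 averaged 2.575 CPM in parental and 4.69 in clone 37, where it was called higher (log2 0.85, SE 0.22), and relative to its neighbours it was not called (0.52). SLC7A5P2 had 0 counts in all 9 libraries. The antisense RNAs SLC7A11-AS1 and SLC38A2-AS1 had at most 3 counts in any library. SNHG1, a noncoding gene on the other strand just upstream of SLC3A2, had 83.5 to 101 CPM over the 9 libraries and was called in neither clone.

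Reads on the opposite strand were under 0.5% of stranded reads at 8 of the 10 genes, 3.13% at SLC6A9, which overlaps CCDC24 on the opposite strand, and 14.9% at SLC1A4. At SLC1A4 they were 7.965% to 10.0% of stranded reads in parental cells, 17.5% to 19.4% in clone 15 and 17.1% to 31.4% in clone 37. Per 1000000 gene counts they were 3.75 to 4.35 in parental cells and 2.28, 4.16 and 2.51 in clone 37, which was not higher, so that the larger share there goes with fewer reads on the gene's own strand. With unstranded counts SLC1A4 was still called lower (-1.86 in clone 37 and -0.847 in clone 15).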

How the data were processed

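Gene counts, 1 file per library, were deposited as STAR's count tables, whose 3 columns hold unstranded counts and counts on each strand. STAR 2.7.10a, FastQC 0.11.9 and the hg38 build are named in the submitters' processing notes, and the annotation release is not given in the sources used here. Per the labels' protocols, libraries were stranded, made from rRNA-depleted total RNA and read as pairs. The fourth column was used, since it held 92.6% to 94.0% of stranded counts. Multimapping pairs are not in these counts, and made up 10.4% to 14.0% of pairs in parental and clone 37 and 4.59% to 5.98% in clone 15. Of the 60683 gene IDs, 60370 had a symbol, and 58496 were in GENCODE 29, which gave positions, lengths and gene types.

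Each pair of groups was fitted alone with edgeR 4.0.16 in R 4.3.3 (filterByExpr, TMM, robust quasi-likelihood test), with Benjamini-Hochberg adjustment over all genes tested, and the code was tested on simulated data. DESeq2 1.42.0 and the other settings in the closing section are alternatives. CPM is per 1000000 gene counts of a library. The ratio of counts was tested by exact permutation over libraries, two-sided. All 10 transporters are named; of each list, the 3 called genes with the largest log2 fold change in each clone are named, and partner pseudogenes and antisense genes are named throughout. A result that this rule would name is not reported here. The genes and lists were chosen with earlier results of these data known. Replicate numbers did not pair the libraries: same-numbered libraries correlated at -0.162 to 0.0228 across groups. Analysis with clone 15 replicate 1 alone and the 12 fibroblast genes were added after seeing the data; the naming rule did not cover the fibroblast genes, and those named were chosen after their values were seen.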

Additional observations from a re-analysis of the deposited data

Results flagged for a closer look

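The change from parental cells differed between the clones for 7 of the 10 genes, as tested by setting clone 37 directly against clone 15 in edgeR. Over all genes tested 29.0% were lower and 28.7% higher in clone 37 than in clone 15, so 7 of 10 is near the share over all genes. Clone 37 minus clone 15 was -1.48 for SLC7A3, -1.10 for SLC1A4, -0.88 for SLC1A5, -0.66 for SLC6A9 and -0.61 for SLC7A1 on the log2 scale. It was 0.43 for SLC7A5 and 0.26 for SLC38A2, the genes that fell further in clone 15.

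Reads on the strand opposite the gene were used only in the alternative with unstranded counts. At 2 genes, every clone 15 library had at least 20 such reads and more of them per 1000000 gene counts than any parental library. At SLC1A4 they averaged 4.997 per 1000000 gene counts in clone 15, against 3.75 to 4.35 in parental. At SLC3A2 they averaged 1.125 per 1000000 in clone 15, against 0.288 to 0.463 in parental. The SLC3A2 counts were 30, 36 and 21 in clone 15 and only 5, 4 and 5 in parental. The minimum of 20 was asked of clone libraries alone, and the clone 15 libraries are the deeper ones. Clone 15 was also read at 100 bases rather than 75, and the parts of depth and read length were not tested.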

How the results depend on the processing

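Over the alternatives run, 8 to 9 of the 10 genes were called in clone 37, 7 to 10 in clone 15 and 7 to 9 between the clones. The replicate block gave 9, 9 and 7 calls and changed no call of the 10 genes. Of 530 single-gene alternatives for the 10 genes, 510 kept direction and side of the threshold, 7 lost a call, 5 gained one and 8 changed sign, of which SLC7A11 between the clones also gained a call in 2 settings. Between the clones, SLC7A5 went from 0.43 to -0.316 relative to chromosome neighbours, because those neighbours differed by 0.75. SLC7A11 became -0.176 with GC and length trends removed and -0.297 relative to neighbours. SLC38A1, not called, became -0.0519, -0.0195 and -0.0115 with trends removed, relative to neighbours and with clone 15 replicate 1 alone. With 1 library left out, it ranged from -0.00715 to 0.0578 and SLC3A2 from -0.000233 to 0.0546. The SLC7A11 to SLC3A2 ratio between the clones was -0.0247 with unstranded counts and -0.0302 to 0.0325 with 1 library left out. SLC25A12 in clone 15 was 0.152 relative to neighbours. Calls of the cystine and glutathione list between the clones fell from 7 to 4 with trends removed. Apart from SLC7A5, for the reason given, the cause was not tested. Of the 10 genes, depth limits SLC7A3 most, with 61 to 72 counts in the clone 37 libraries.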
